A study of Mus musculus with 48 samples.

Results

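The middle-third region of the mouse Vk locus is a stretch of 1049.5 kb of chromosome 6 (mm9), between 1069 and 2119 kb from Jk5, with annotated genes from Igkv10-96 (start 68597993) to Igkv4-53 (end 69599109). Its members are the junctions that fall there in the 12 libraries made with a bait at Jk5, and the rule uses position only: 124113 of the 508158 junctions in the Vk region and of 568001 in these libraries. The series holds 48 samples and 10843488 junctions in 37 full junction lists, most of them with baits in the heavy chain locus. The libraries were made by LAM-HTGTS. Here copies are extended from a primer in a chosen segment, the bait, and sequencing reads through the joint into its partner, the prey. The series title places them in a study of how loop extrusion contracts antigen receptor loci for V(D)J recombination.

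The 4 groups differed in cells, strain and treatment. Marrow pre-B libraries (n = 3) came from wild-type 129 mice. Cycling v-Abl libraries (n = 4) came from a 129sv pro-B line transformed by v-Abl, carrying Emu-Bcl2, deficient in RAG2 and given RAG2 by retrovirus; the titles call it cycling, while its treatment text lists 3 uM STI-571, an Abl kinase inhibitor that arrests such lines, for 4 days. Untreated Wapl-degron libraries (n = 3) came from a B6 v-Abl pro-B line with Wapl-degron, OsTIR1, Single Igh, Emu-Bcl2 and RAG1 deficiency, given RAG1/2 by retrovirus and 3 uM STI-571 for 4 days. IAA/Dox Wapl-degron libraries (n = 2) came from the same line with STI-571 for 1 day and then 150 uM IAA, 2 mg/mL Dox and STI-571 for 3 days. OsTIR1 is a plant receptor that targets degron-tagged proteins for destruction when auxin (IAA) is present, and the files hold no measure of Wapl itself. The labels do not say whether replicates were separate cultures or animals, so permutation p-values measure the spread between these libraries, which may be technical. The limma p-values for segments also draw on a spread pooled over the Vk segments fitted. They therefore do not measure the spread between libraries at that segment alone.

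Wapl releases cohesin from DNA, and its loss lets cohesin extrude longer loops. In pre-B cells RAG, bound at the Jk segments, pairs a Jk with a distant Vk across a very large region, by deletion where the Vk points the same way as Jk and by inversion where it points the opposite way. RAG cuts at a recombination signal sequence (RSS), a heptamer and a nonamer held apart by a spacer, which is short at Vk segments. The middle of the Vk region is dominated by the Igkv4 family, a large group of related V segments.

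The annotation places 32 Igkv genes in the middle-third region, 30 on the minus strand, which join Jk by inversion, and 2 on the plus strand, which join by deletion (Igkv10-95 and Igkv13-84). Of the 100 Igkv genes of the whole region 62 lie on the minus strand. Family Igkv4 supplies 25 of the 32. Junctions of the 12 libraries were grouped into segments, clusters of positions on 1 strand with gaps of up to 20 bp, and a segment took the name of an Igkv gene within 20 bp. Of 205 clusters 52 held at least 10 junctions, and these held 99.7% of the junctions: 31 were the coding ends of annotated genes, 15 had no annotated gene and 6 lay on the signal side of a gene's end. By this naming every annotated gene had a segment except Igkv10-96, annotated at 68597993 to 68598115, with 0 junctions there. The site without an annotated gene at 68581958 shares all but the first of 38 signal bases with Igkv10-95. Where it lies, between Igkv12-98 and Igkv10-96, the RefSeq gene table, on another assembly, lists the V pseudogene Igkv15-97. Whether the site is the end of Igkv10-96 or of this pseudogene was not resolved.

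Of the 39 coding-side or unannotated segments with at least 100 junctions, 34 had an exact CACAGTG heptamer at the break and 38 had a spacer of 12 bp. An exact heptamer lies in 0.14% of 22 bp tiles of the middle-third region, both strands counted. The 16 bases of heptamer and nonamer (consensus CACAGTG and ACAAAAACC) all matched with a 12 bp spacer in 22 segments. None of 4198 positions sampled through the middle-third region and searched the same way reached 16 matches, and 5.05% reached 9, the lowest match of the 39. The signals of segments that lead the groups or that changed most are given here from the mm9 genome, read from the end of the V segment into the signal, with heptamer and nonamer in capitals and all on the minus strand except Igkv10-95.
Unannotated site, chr6:69060870-69060907: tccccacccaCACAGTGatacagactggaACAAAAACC
Igkv4-74, chr6:69134792-69134829: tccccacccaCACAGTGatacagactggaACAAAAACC
Igkv4-57, chr6:69525941-69525978: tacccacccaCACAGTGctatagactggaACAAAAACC
Igkv19-93, chr6:68686263-68686300: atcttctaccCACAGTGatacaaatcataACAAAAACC
Igkv4-80, chr6:68966524-68966561: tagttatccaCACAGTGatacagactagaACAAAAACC
Igkv4-81, chr6:68940724-68940761: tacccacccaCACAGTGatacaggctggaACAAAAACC
Igkv4-73, chr6:69147549-69147586: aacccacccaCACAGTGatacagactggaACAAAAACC
Igkv4-92, chr6:68705004-68705041: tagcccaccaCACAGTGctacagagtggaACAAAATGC
Igkv4-63, chr6:69327911-69327946: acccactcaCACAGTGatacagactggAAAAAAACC
Igkv4-62, chr6:69349778-69349815: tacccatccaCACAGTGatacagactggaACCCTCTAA
Igkv10-95, chr6:68630833-68630870: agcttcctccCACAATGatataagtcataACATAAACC

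The unannotated site and Igkv4-74 carry the same 38 bases, and the 38 bases of Igkv4-73 recur at Igkv4-72, Igkv4-71, Igkv4-68 and Igkv4-59. Igkv4-63 has an 11 bp spacer, the nonamer of Igkv4-62 matches the consensus at 2 of 9 bases, and that of Igkv4-92 at 7. Segments with all 16 bases matched had a median use of 0.978% of Vk junctions in marrow pre-B and 0.547% in IAA/Dox libraries, and the other 17 segments 0.256% and 0.0387%. The ranges overlapped: the least used fully matched segment stood at 0.344% in marrow pre-B, and the most used of the others at 0.889%. This is a description over related segments, with no test.

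Depth differed widely. Marrow pre-B libraries had 19894 to 30742 Vk junctions, untreated Wapl-degron 117353 to 136877, IAA/Dox 16607 and 25540, and cycling v-Abl 584 to 3973, with 25.1% to 64.5% of cycling v-Abl junctions off chromosome 6 against at most 12.3% in any other library. The bait alignment started within 5 bp of Jk5 in 74.5%, 36.8%, 75.5% and 37.3% of all junctions of cycling replicates 1 to 4, and in 87.9% to 99.7% of those of the other libraries. Among middle-third junctions that share was 99.7% to 100% in all 12 libraries. Cycling replicates 2 and 4 held 271 and 321 middle-third junctions. Each marrow pre-B library and each cycling library was sequenced in a run without the other groups, as told from the read names, so run and group cannot be told apart in comparisons with marrow pre-B, while both Wapl-degron groups shared 1 run. Prey alignments had medians of 123 to 145 bp in marrow pre-B and 64 to 67 bp in the other libraries, which bears on segments with close copies and is taken up beside them. No read name was shared between libraries. Intervals below cover counting error only, since the libraries carry no molecular identifiers.

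Cycling v-Abl lines placed the largest share of Vk junctions in the middle-third region, and both Wapl-degron groups the smallest. The share was 31.3%, 29.8% and 30.6% in marrow pre-B, 39.9%, 46.4%, 42.7% and 47.3% in cycling v-Abl, 21.2%, 23.2% and 25.05% in untreated Wapl-degron, and 20.3% and 23.2% in IAA/Dox libraries. Cycling libraries all lay above marrow pre-B, untreated libraries all lay below it, and the IAA/Dox and untreated ranges overlapped. The 95% Wilson interval of the shallowest library, cycling replicate 2, ran from 42.4% to 50.5%.

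**Figure D1:**
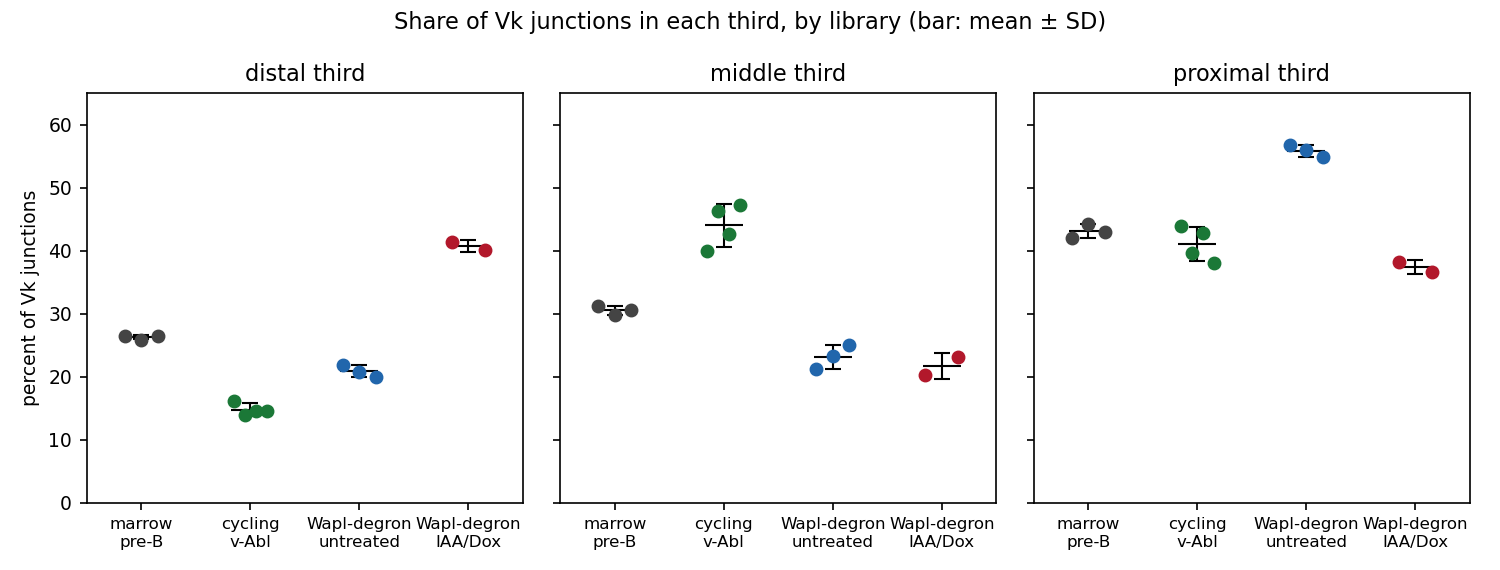
Percent of Vk junctions in the distal-third region, the middle-third region and the proximal-third region (y axis, percent) for each library, by group, with bars at the mean ± SD. In the middle panel the 4 cycling v-Abl libraries lie at 39.9% to 47.3%, above the marrow pre-B libraries at 29.8% to 31.3% and the 5 Wapl-degron libraries at 20.3% to 25.05%.

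The group means were 30.6% ± 0.755 (SD, n = 3), 44.1% ± 3.40 (n = 4), 23.2% ± 1.90 (n = 3) and 21.8% ± 2.04 (n = 2) in the same order. Cycling exceeded marrow pre-B by 13.5 percentage points (two-sided exact permutation test, p = 0.0571, adjusted p = 0.171 over 12 tests), untreated Wapl-degron differed from marrow pre-B by -7.38 points (exact p = 0.1, adjusted p = 0.171), and IAA/Dox differed from untreated by -1.43 points (exact p = 0.4, adjusted p = 0.436). The smallest p these designs allow is 0.0571, 0.1 and 0.2, so none could pass 0.05. With all junctions of the library as denominator the cycling difference turned to -7.25 points. Leaving out the 22 of 121 Vk segments with a close copy (defined below) moved the untreated difference to -2.36 points, preys of 30 to 90 bp moved it to -3.58 and distinct junctions to -4.85. The IAA/Dox difference was -2.57 points with all junctions as denominator and -3.64 with distinct junctions (exact permutation p = 0.2).

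The shares of the flanking parts of the Vk region differed more after IAA/Dox than that of the middle. The distal-third region was 41.5% and 40.2% of Vk junctions against 20.03% to 21.95% in untreated libraries, and the proximal-third region 38.2% and 36.6% against 54.9% to 56.8%. The log2 ratio of middle to proximal junctions was -0.91 and -0.66 after IAA/Dox and -1.42, -1.27 and -1.13 without, a difference of 0.49 (exact permutation p = 0.2, adjusted p = 0.24), which was 0.13 when each distinct junction counted once (exact permutation p = 0.4). The log2 ratio of middle to distal junctions was -1.03 and -0.79 against -0.05, 0.16 and 0.32, a difference of -1.06 (exact p = 0.2, adjusted p = 0.24). Neither pair of ranges overlapped. In cycling against marrow pre-B these ratios differed by 0.59 and 1.36 (both exact p = 0.0571, adjusted p = 0.171), and in untreated against marrow pre-B by -0.78 (exact p = 0.1, adjusted p = 0.171) and -0.07 (exact p = 0.7, adjusted p = 0.7).

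Within the middle-third region, junctions lay at different distances from Jk in each group. Cut into 3 windows of equal length, its far window, farthest from Jk, held 23.8% ± 0.713 (SD, n = 3) of the marrow pre-B junctions, 12.7% ± 0.782 (n = 4) of cycling, 18.02% ± 0.779 (n = 3) of untreated and 26.9% ± 0.768 (n = 2) of IAA/Dox junctions. The near window held 34.2% ± 1.11, 31.5% ± 5.09, 42.8% ± 1.53 and 29.3% ± 0.882. The IAA/Dox libraries, at 27.4% and 26.4% far and 28.7% and 29.9% near, lay outside the untreated ranges of 17.2% to 18.7% and 41.1% to 44.1%. The central window was largest in cycling libraries, at 52.6% to 62.6%. These windows were not tested. Use was also more even in marrow pre-B: the 5 most used segments of each library held 30.2% ± 0.352 of its middle-third junctions there, against 44.6% ± 3.96 in cycling, 39.5% ± 0.532 in untreated and 43.0% ± 0.731 in IAA/Dox libraries. The 5 were picked anew in each library, which can raise the value in shallow ones. The share was not recomputed over short preys or without segments that have a close copy (defined below).

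The Igkv4 family held most middle-third junctions in every group: 70.6% ± 0.911 in marrow pre-B, 69.0% ± 2.98 in cycling, 70.9% ± 0.938 in untreated and 62.7% ± 0.866 in IAA/Dox libraries. Igkv19, with the single gene Igkv19-93, held 4.47% ± 0.270 of the middle-third region in untreated and 11.3% ± 0.367 in IAA/Dox libraries, and Igkv1, with Igkv1-88, stood at 4.68% ± 0.306 and 7.73% ± 0.498. Sites with no annotated gene held 18.3% ± 0.668, 21.2% ± 3.36, 19.0% ± 0.362 and 17.0% ± 1.11 in the order marrow pre-B, cycling, untreated, IAA/Dox.

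**Figure D2:**
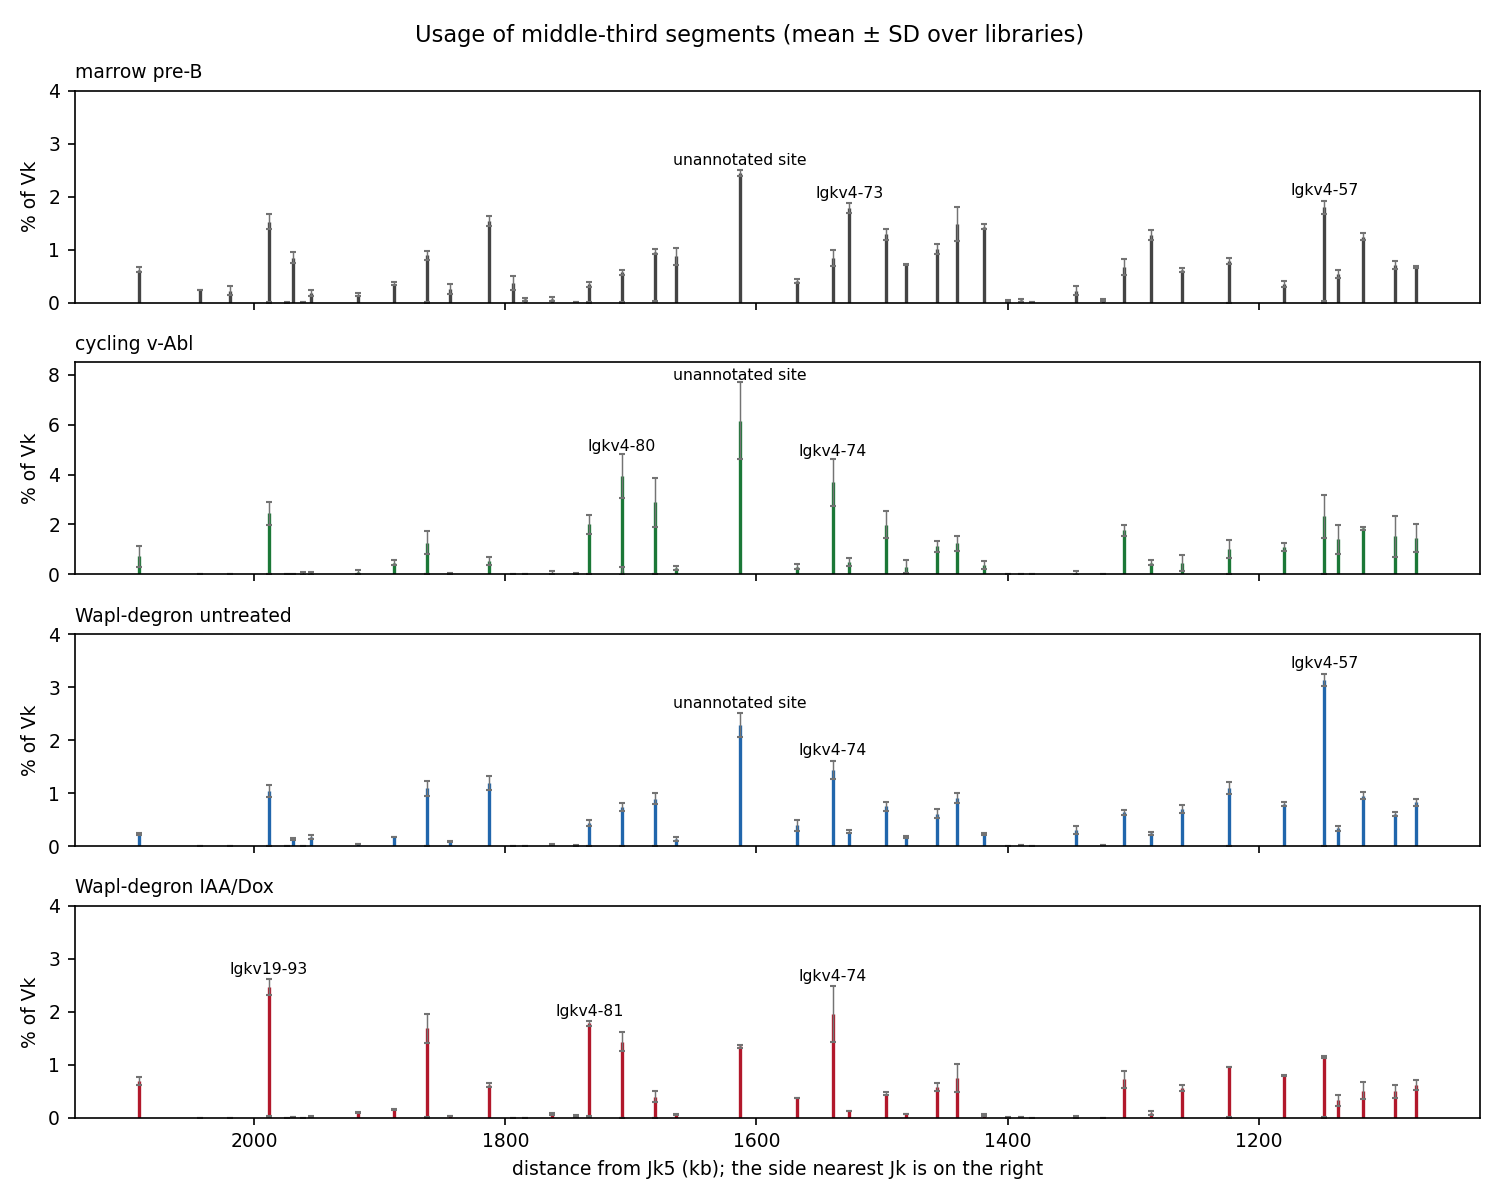
Mean percent of Vk junctions at each of the 52 middle-third segments (y axis, on a larger scale for cycling v-Abl) against distance from Jk5 in kb (x axis, Jk side on the right), with SD over libraries. The unannotated site 1613 kb from Jk5 leads in marrow pre-B and cycling libraries, Igkv4-57 in untreated and Igkv19-93 in IAA/Dox libraries.

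The segment with the most use in marrow pre-B and cycling v-Abl libraries had no annotated gene. It lies at position 69060903, 1613 kb from Jk5 between Igkv4-78 and Igkv4-74, and took 2.39%, 2.42% and 2.50% of Vk junctions in marrow pre-B, 5.22%, 5.14%, 5.92% and 8.40% in cycling, 2.18%, 2.12% and 2.54% in untreated, and 1.37% and 1.32% in IAA/Dox libraries. Cycling libraries were all the highest and IAA/Dox the lowest. Between Igkv4-78 and Igkv4-74 the RefSeq gene table, on another assembly (GRCm38.p6), lists 4 V pseudogenes, Igkv4-77, Igkv13-76, Igkv4-75 and Igkv13-74-1. Which of them the site is was not resolved here, though its signal is that of Igkv4-74. Of the other sites without an annotated gene, those at 69581647 and 69413187 had the most junctions, pooled over the 12 libraries and so weighted to the deep untreated ones. The first had 0.709% ± 0.0694 in marrow pre-B and 0.603% ± 0.0364 in untreated libraries, and the second 0.612% ± 0.0432 and 0.701% ± 0.0775. The site at 68581958 had 0.618% ± 0.0483 in marrow pre-B and, at 0.691% ± 0.0697, the highest mean of these 3 sites in IAA/Dox libraries. Where 69413187 lies, between Igkv4-59 and Igkv4-58, the RefSeq table lists the V segment Igkv4-60. Where 69581647 lies, between Igkv4-55 and Igkv4-53, it lists the V segment Igkv4-54 and the pseudogene Igkv13-54-1. Whether these are the sites was not resolved.

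Igkv4-57, the annotated segment with the most junctions (13977), took 1.70%, 1.75% and 1.94% in marrow pre-B, 2.54%, 3.25%, 2.37% and 1.18% in cycling, 3.00%, 3.17% and 3.22% in untreated, and 1.14% and 1.16% in IAA/Dox libraries. The untreated and IAA/Dox libraries did not overlap, and the cycling libraries spanned the marrow range. Other segments among the 5 most used of a group were Igkv4-73 and Igkv4-86 (marrow pre-B, 1.78% ± 0.0975 and 1.54% ± 0.0860), Igkv4-80, Igkv4-74 and Igkv4-79 (cycling, 3.94% ± 0.898, 3.68% ± 0.956 and 2.89% ± 0.980) and Igkv4-58 (untreated, 1.09% ± 0.114).

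**Figure D3:**
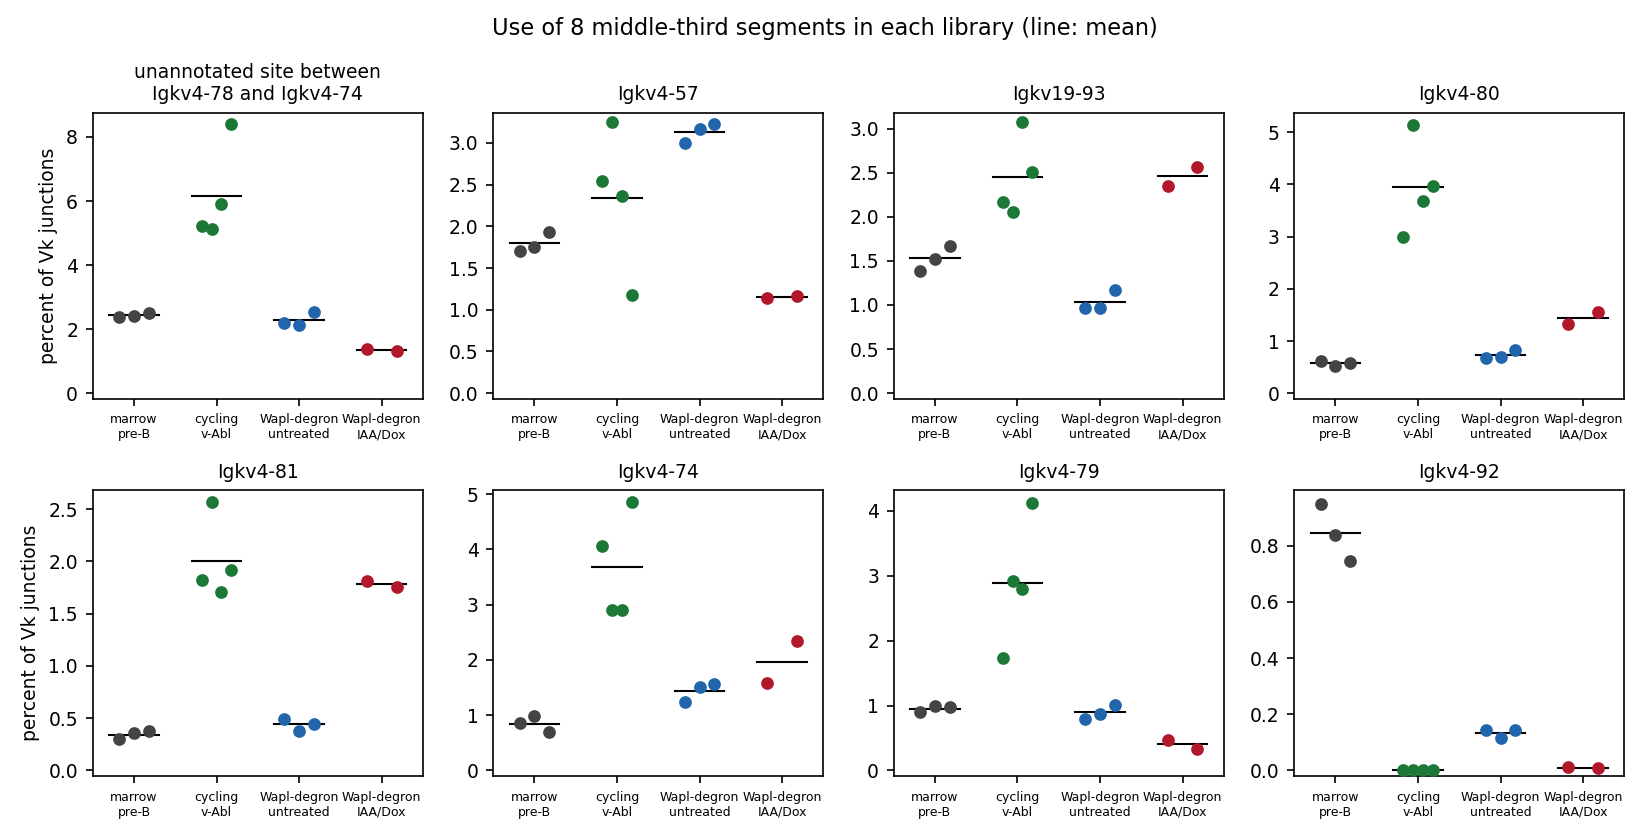
Percent of Vk junctions at 8 middle-third segments (y axis, own scale in each panel) in each library, by group, with a line at the mean. Igkv4-81 and Igkv4-80 are high in cycling and IAA/Dox libraries, Igkv4-57 has its highest mean in untreated libraries, and Igkv4-92 is at 0 in all 4 cycling libraries.

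Treatment of the Wapl-degron line with IAA/Dox was the comparison that asks what loss of Wapl does to Vk use, with both groups in 1 sequencing run. Segment counts were compared with limma voom, a linear model of log2 counts weighted by their precision. It took every Vk segment reaching 10 junctions over both groups, with the library's Vk junctions as its size, and an adjusted p (Benjamini-Hochberg over all Vk segments) under 0.05 was the call. Of 46 middle-third segments tested 24 were called, 9 higher and 15 lower, while 48.3% of the 180 segments of the whole region were called (23.3% higher, 25% lower). The median log2 fold change was -0.23 in the middle-third region and -0.03 over the region. Of the 12 segments tested in its far window 5 rose and 4 fell, and of the 18 in its near window 6 fell and the others were not called. Of 25 Igkv4 coding ends tested 3 rose and 13 fell. Igkv4-92 and Igkv4-91 in the far window and Igkv4-63 and Igkv4-62 in the near window are among these falls. They reached 10 junctions through the untreated libraries alone, so the choice of segments leans these counts to falls. An effect of position was not tested.

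The largest rise at a coding end was Igkv4-81, 1733 kb from Jk5: 1.81% and 1.75% of Vk junctions after IAA/Dox against 0.492%, 0.380% and 0.449% without. The fold change on the log2 scale was 2.02 (SE 0.16, adjusted p = 1.3e-05 by limma), and 1.39 when each distinct junction counted once. Of middle-third junctions 41.4% to 42.2% were distinct in untreated libraries and 72.1% and 65.3% in IAA/Dox libraries. Igkv4-80, its neighbour, went from 0.684%, 0.693% and 0.826% to 1.32% and 1.56% (log2 0.99, SE 0.16, adjusted p = 7.9e-04). Igkv19-93 stood at 2.35% and 2.57% against 0.970%, 0.968% and 1.17% (log2 1.27, SE 0.14, adjusted p = 6.3e-05). In all 3 the groups did not overlap. Other rises, named after their values were seen, were Igkv4-90 (0.0409% ± 0.00592 to 0.0943% ± 0.0115, log2 1.22, adjusted p = 0.013) and the site without an annotated gene at 68581958 (0.228% ± 0.0132 to 0.691% ± 0.0697, log2 1.58, SE 0.18). Igkv1-88 rose from 1.09% ± 0.140 to 1.69% ± 0.266 (log2 0.66, adjusted p = 0.0098), but was not called with TMM scaling (log2 0.56, limma adjusted p = 0.054). Igkv4-74 had 1.44% ± 0.174 and 1.96% ± 0.526 (log2 0.47, adjusted p = 0.065). Igkv4-74 was called higher with distinct junctions (log2 0.42, limma adjusted p = 0.024), with a minimum of 1 junction (0.0059), with the replicate block (2.6e-05) and without untreated replicate 2 (0.045), untreated replicate 3 (8.4e-04) or IAA/Dox replicate 1 (log2 0.71, 0.035). Without IAA/Dox replicate 2 its log2 difference was 0.16.

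The largest falls were at little used segments. Igkv4-63, Igkv4-92, Igkv4-62 and Igkv4-91 had 9, 4, 0 and 8 junctions over both IAA/Dox libraries, against 1133, 511, 81 and 649 in untreated libraries. They reached the minimum for testing through the deeper untreated libraries alone, so the choice of segments leans them to falls. Igkv4-63, whose signal has the short spacer, had 0.221%, 0.343% and 0.337% in untreated and 0.00602% and 0.0313% in IAA/Dox libraries, the latter from 1 and 8 junctions (log2 -3.91, SE 0.78, limma adjusted p = 0.0029; -3.14 without IAA/Dox replicate 1). Igkv4-92 had 0.145%, 0.114% and 0.142% against 0.0120% and 0.00783%, from 2 junctions in each IAA/Dox library (log2 -3.52, SE 0.63, adjusted p = 0.0015; -4.61 with preys of 30 to 90 bp). Igkv4-62, whose nonamer departs from the consensus, had 32, 32 and 17 junctions in untreated and 0 in both IAA/Dox libraries (adjusted p = 0.012), which is at least 1.41-fold lower against a floor of 3 counts per library. Igkv4-91, named after its values were seen, had 0.145%, 0.154% and 0.217% against 0.0301% and 0.0118% (log2 -3.10, SE 0.61, adjusted p = 0.0026). Of well used segments Igkv4-57 fell by 1.44 on the log2 scale (SE 0.14, adjusted p = 2.7e-05; by 0.81 with distinct junctions), Igkv4-79 by 1.20 (adjusted p = 0.0033), Igkv4-86 by 0.91 (adjusted p = 0.0046) and the unannotated site at 69060903 by 0.76 (adjusted p = 0.0036).

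With 24 middle-third segments called from both IAA/Dox libraries, 18 were called without replicate 1 and 9 without replicate 2, the deeper of the pair. The lone library left is then assumed to vary like the others. Without replicate 2 the limma call was lost at Igkv4-63 (log2 -5.02, adjusted p = 0.097), Igkv4-92 (log2 -3.15, 0.097), Igkv4-62 (log2 -2.80, 0.20), Igkv4-79 (log2 -0.89, 0.064), the site at 69060903 (log2 -0.73, 0.062) and Igkv1-88 (log2 0.48, 0.17), each with its direction unchanged. Igkv4-62 also lost its call without IAA/Dox replicate 1 and with preys of 30 to 90 bp (limma adjusted p = 0.26). Its count was 0 in both IAA/Dox libraries, so its log2 values are set by the prior count and only the bound above holds. A quasi-binomial model per segment called 8 of them, and Igkv4-80 (adjusted p = 0.065), Igkv4-86 (0.12), Igkv4-79 (0.11), Igkv4-63 (0.11), the site at 69060903 (0.13) and Igkv1-88 (0.16) were not among these, with their direction unchanged.

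**Figure D4:**
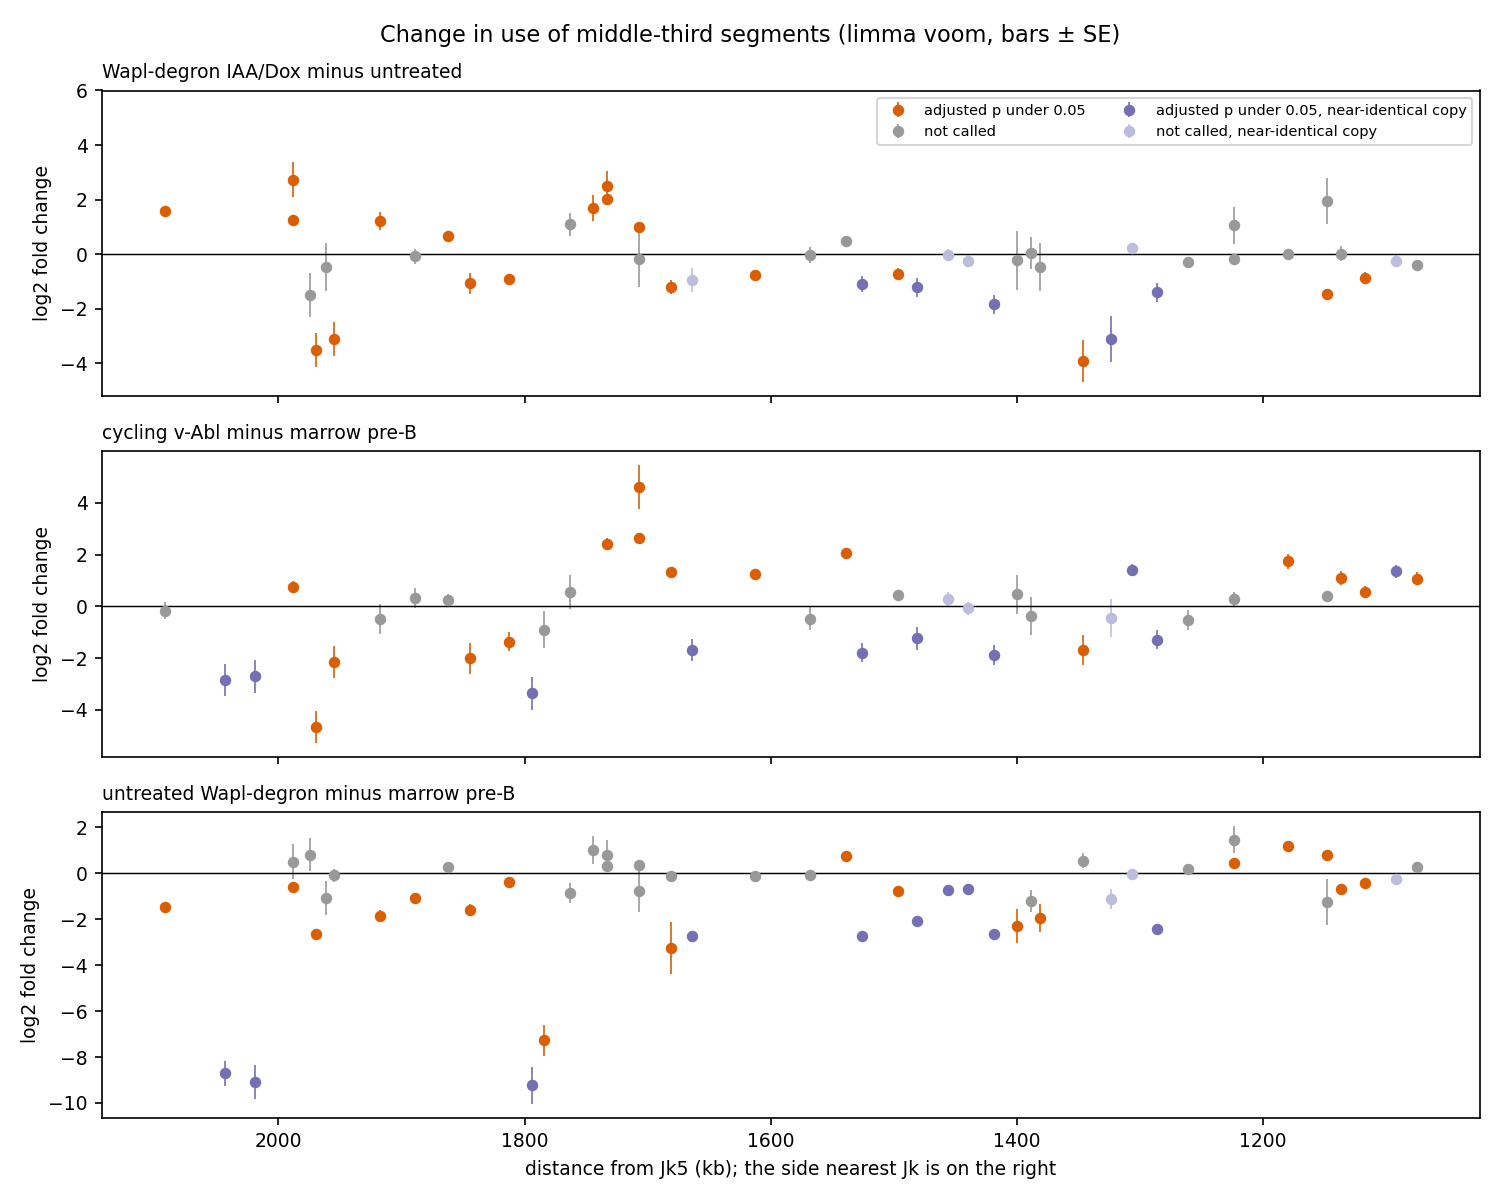
Log2 fold change of each tested middle-third segment (y axis, limma voom, bars ± SE) against distance from Jk5 in kb (x axis, Jk side on the right) for the 3 comparisons; segments within 1 mismatch of another Vk stretch over 65 bp are drawn in purple. In the top panel the called rises lie 1707 kb or more from Jk5; in the bottom panels the purple segments are mostly below 0, and Igkv10-95, Igkv10-94 and the site at 68880264 among them have nearly all their junctions in marrow pre-B.

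Cycling v-Abl and marrow pre-B libraries, both of 129 background, differed in use of 26 of 42 tested middle-third segments, 13 higher and 13 lower in cycling, against 58.5% of 130 segments called over the whole region (18.5% higher, 40% lower). The median log2 fold change was 0.08 in the middle-third region and -0.53 over the region. Of coding ends, Igkv4-80 rose most: 2.98%, 5.14%, 3.68% and 3.98% in cycling against 0.623%, 0.527% and 0.572% in marrow pre-B (log2 2.63, SE 0.19, limma adjusted p = 4.9e-37). Igkv4-81 stood at 1.82%, 2.57%, 1.71% and 1.92% against 0.297%, 0.358% and 0.377% (log2 2.41, SE 0.25, adjusted p = 1.5e-19), and Igkv4-74 at 4.05%, 2.91%, 2.89% and 4.86% against 0.860%, 0.979% and 0.688% (log2 2.05, SE 0.18, adjusted p = 2.9e-25). No library overlapped between the groups at these 3 segments. With 4 and 3 libraries, p-values this small rest on the spread pooled over segments. Their size cannot be set beside that of the p-values after IAA/Dox. Igkv4-79 and the unannotated site at 69060903 rose by log2 1.34 and 1.24 (adjusted p = 1.6e-10 and 1.2e-13). Rises nearer to Jk were Igkv4-57-1 (0.355% ± 0.0550 to 1.09% ± 0.169, log2 1.74, SE 0.29, adjusted p = 2.6e-08) and Igkv4-61, which has a close copy and was named after its values were seen (0.673% ± 0.157 to 1.76% ± 0.214, log2 1.42, SE 0.23). By window, 1 segment rose and 7 fell of 13 tested in the far window. In the central window 6 rose and 3 fell of 14, and in the near window 6 rose and 3 fell of 15. Of the far-window falls, Igkv10-95, Igkv10-94, Igkv4-92 and the site at 68880264 had 0 cycling junctions, and Igkv4-91 had 1. These segments passed the minimum of 10 junctions through marrow pre-B alone, so the choice of segments leans the far-window count to falls. An effect of position was not tested.

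Igkv4-92 was among the segments that fell. It had 189, 258 and 192 junctions in marrow pre-B (0.950%, 0.839% and 0.747%) and 0 in all 4 cycling libraries, which is at least 3.005-fold lower against the floor of 3 counts per library (limma adjusted p = 2.1e-12). A count of 0 allows up to 0.281% on average at the depth of the cycling libraries. Igkv4-86 went from 1.54% ± 0.0860 to 0.526% ± 0.170 (log2 -1.36, SE 0.36, adjusted p = 5.1e-04). With the library's total junctions as its size, which counts the junctions off chromosome 6, 4 of 42 tested middle-third segments were called higher and 18 lower. The median log2 fold change was then -0.81 in the middle-third region and -1.56 over the whole region. The rises of the site at 69060903 (log2 0.29, limma adjusted p = 0.55), Igkv4-79 (0.57, adjusted p = 0.23) and Igkv4-57-1 (0.72, adjusted p = 0.19) lost their call, while those of Igkv4-80, Igkv4-81 and Igkv4-74 did not (log2 1.77, 1.62 and 1.15). The log2 difference of Igkv4-86 was then -2.51. Without both shallow cycling libraries 13 of 41 tested were higher and 15 lower, with medians of -0.47 in the middle-third region and -0.72 over the whole region. The share called over the whole region is not given for these settings.

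Untreated Wapl-degron libraries, from a B6 line, differed from marrow pre-B at 28 of 51 tested middle-third segments, 4 higher and 24 lower, with 46.8% of 190 called over the region (17.4% higher, 29.5% lower). The median log2 fold change was -0.68 in the middle-third region and -0.10 over the region. The split depended on the scaling: 16 of 50 tested were higher and 20 lower with distinct junctions, and 10 and 20 of 51 with TMM scaling. The median over the whole region was then 0.22 and 0.17. The rises were Igkv4-57-1 (0.788% ± 0.0378 against 0.355% ± 0.0550, log2 1.18, SE 0.15, limma adjusted p = 2.1e-04), Igkv4-57 (log2 0.80, SE 0.09, adjusted p = 5.3e-05), Igkv4-74 (log2 0.77, SE 0.17, adjusted p = 0.0054) and Igkv4-58 (log2 0.46, SE 0.14, adjusted p = 0.024). Igkv4-58 lost its call without any 1 of the marrow pre-B libraries (log2 0.48, 0.51 and 0.40, adjusted p = 0.053, 0.054 and 0.10), with preys of 30 to 90 bp (log2 0.46, adjusted p = 0.20), with a quasi-binomial model (log2 0.47, adjusted p = 0.11) and with the library's total junctions as its size (log2 0.38, adjusted p = 0.053). The call was also lost at Igkv4-74 with those preys (log2 0.48, adjusted p = 0.15) and with a quasi-binomial model (log2 0.76, adjusted p = 0.074). Igkv4-92 had 0.134% ± 0.0172 against 0.845% ± 0.102 (log2 -2.65, SE 0.16, adjusted p = 1.8e-06; -1.62 with distinct junctions), and Igkv19-93 1.04% ± 0.116 against 1.53% ± 0.143 (log2 -0.58, SE 0.12, adjusted p = 0.0038). The Igkv19-93 call was lost with TMM scaling (log2 -0.31, adjusted p = 0.062) and with the quasi-binomial model (0.054). By window, 11 of 16 tested fell in the far window. In the central window 1 rose and 7 fell of 17, and in the near window 3 rose and 6 fell of 18. Of the far-window falls, Igkv10-95, Igkv10-94, Igkv13-84 and the site at 68880264 had at most 1 untreated junction. They passed the minimum of 10 junctions through marrow pre-B alone, so the choice of segments fixes their direction. An effect of position was not tested. Strain, cell type and run differ together here and cannot be told apart.

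Several of the segments seen mainly in marrow pre-B have close copies elsewhere in the Vk region. Of the 39 segments with at least 100 junctions, 13 differ by at most 1 base over the 65 bp next to the break, about the prey length of the v-Abl libraries, from another Vk stretch, a measure chosen after the data were seen. These 13 held 35.4% ± 1.78 of middle-third junctions in marrow pre-B, 17.3% ± 3.90 in cycling, 16.5% ± 0.437 in untreated and 13.6% ± 1.86 in IAA/Dox libraries. Igkv10-95, Igkv10-94 and the site at 68880264 are among the 13 and reached 100 junctions through marrow pre-B alone, so the choice of segments fixes their direction.

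Restricting all libraries to preys of 30 to 90 bp lowered every one of the 13 in marrow pre-B, to a median of 0.449 of its value, while 17 of the other 26 rose, with a median ratio of 1.15. Igkv4-73 was 1.78% ± 0.0975 of marrow pre-B Vk junctions over all preys and 0.709% ± 0.148 over the short preys, and Igkv4-68 1.43% ± 0.0486 and 0.431% ± 0.0286. Igkv10-95 and Igkv10-94, which match a Vk stretch at all 65 bases, had 179 and 172 junctions in marrow pre-B, 0 in cycling and IAA/Dox libraries, and 1 and 0 in untreated. The untreated share of Igkv10-94 is at least 94.7-fold lower than in marrow pre-B against the floor, and of the 179 and 172 junctions 14 and 35 had short preys. The site at 68880264, identical over 140 bp to another stretch, had 267 junctions in marrow pre-B, 0 of them with short preys, 0 in cycling and 1 in untreated libraries. Where it lies, between Igkv4-86 and Igkv13-84, the RefSeq table lists the V segment Igkv13-85. Whether this is the site was not resolved. Igkv4-92, whose nearest stretch differs at 10 of 65 bases, stood at 0.845% ± 0.102 over all preys and at 1.00% ± 0.188 over short ones. With short preys in all libraries 13 of 37 tested middle-third segments were higher and 8 lower in cycling than in marrow pre-B. In untreated 2 of 45 were higher and 15 lower. The median log2 fold changes were 0.34 and -0.50 in the middle-third region and -0.46 and -0.35 over the whole region. The share called over the whole region is not given for this setting. The part of prey length and close copies in these differences was not tested.

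**Figure D5:**
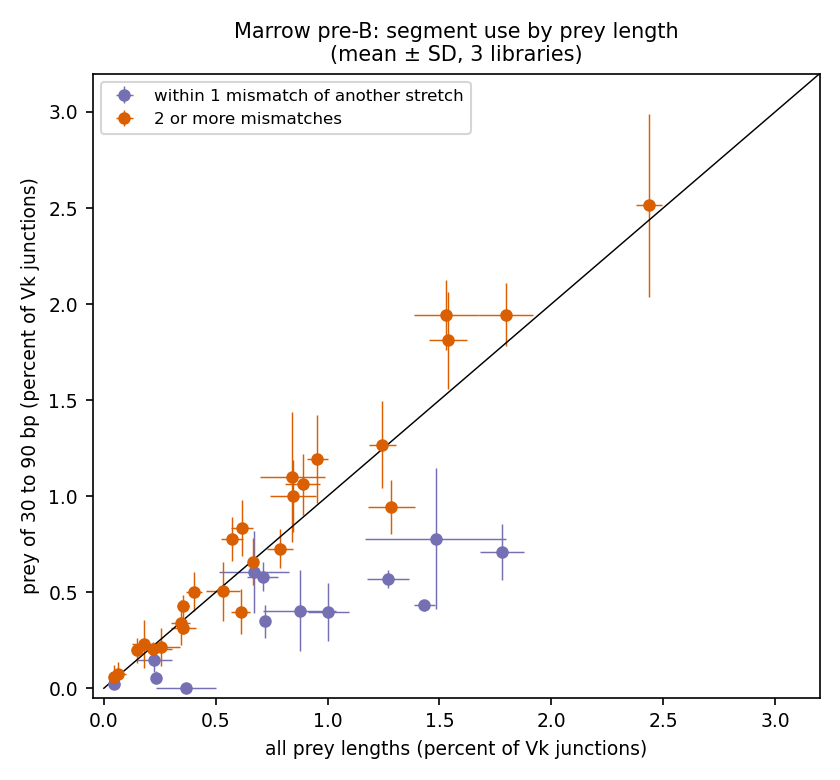
Mean percent of Vk junctions of the 39 middle-third segments with at least 100 junctions in marrow pre-B, over all preys (x axis) and over preys of 30 to 90 bp (y axis), with SD over 3 libraries and a line of equality. The 13 segments within 1 mismatch of another Vk stretch over 65 bp all lie below the line.

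Nearly all middle-third junctions ran in the inversional orientation of its minus-strand genes. Junctions on the minus strand made up 1.38%, 1.21% and 1.21% in marrow pre-B, 0.315%, 0.738%, 0.590% and 0% in cycling (0 of 321, which allows up to 0.935%), 0.316%, 0.291% and 0.286% in untreated and 0.682% and 0.878% in IAA/Dox libraries. The IAA/Dox libraries lay above the untreated ones (difference 0.48 points, exact permutation p = 0.2, adjusted p = 0.24). Marrow pre-B lay above cycling and untreated libraries (differences of -0.86 and -0.97 points from marrow pre-B, exact p = 0.0571 and 0.1, adjusted p = 0.171 for both), and its mean was 0.506% over short preys. Without segments that have a close copy these differences were -0.28 (exact permutation p = 0.343) and -0.42 points (exact p = 0.1). In marrow pre-B the plus-strand genes Igkv10-95 and Igkv13-84 supplied 226 junctions, 0.979% ± 0.0588 of the middle-third region, and in the other 9 libraries 1. Igkv13-84 had 47 junctions in marrow pre-B and 0 in untreated libraries, at least 27.7-fold lower against the floor. It reached 10 junctions through marrow pre-B alone, so the choice of segments fixes its direction. With under 100 junctions it was not searched for a close copy, and it stayed in the values without segments that have one.

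Some of the other minus-strand junctions were assigned to a gene on the strand opposite to its coding joints, 44 of 75 minus-strand junctions in the IAA/Dox libraries. The assignment covered the whole gene and 20 bp beyond it, so not all of them need lie on the signal side of its break. Junctions of this class made up 0.353%, 0.226% and 0.252% of the junctions assigned to genes in marrow pre-B, 0.405%, 0.885%, 0.300% and 0% in cycling (from 4, 2, 4 and 0 junctions), 0.221%, 0.204% and 0.198% in untreated, and 0.469% and 0.625% in IAA/Dox libraries, whose exact 95% intervals ran from 0.250% to 0.801% and from 0.425% to 0.886%. At Igkv19-93 and Igkv4-81 the clusters on the signal side of the break were called higher after IAA/Dox, with 3 and 8 junctions against 6, 8 and 2 at the first (log2 2.73, SE 0.64, limma adjusted p = 0.0062) and 4 and 7 against 6, 8 and 4 at the second (log2 2.51, SE 0.52, adjusted p = 0.0036). Without IAA/Dox replicate 2 the log2 differences were 2.33 and 2.44 and neither was called (adjusted p = 0.17 and 0.083), and the quasi-binomial model did not call Igkv19-93 (adjusted p = 0.096). With distinct junctions the log2 differences were 2.00 and 1.61. The signal side of Igkv4-80, named after its values were seen, was called higher in cycling than in marrow pre-B, with 4, 2, 2 and 0 junctions against 2, 0 and 1 (log2 4.60, SE 0.85, limma adjusted p = 5.1e-07), and the libraries overlapped. Where a library had 0 junctions its log2 value was set by the prior count and its depth. Cycling replicate 4, with 0 of 679 Vk junctions, thus enters this log2 difference as a high value. A minus-strand site with no annotated gene at 68929654, also named after its values were seen, had 19, 12 and 15 junctions in untreated and 4 and 13 in IAA/Dox libraries (log2 1.69, SE 0.48, limma adjusted p = 0.016).

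The structure of the coding joints also differed between groups. Joints with neither inserted bases nor shared bases (microhomology) between bait and prey were 46.6%, 46.6% and 48.4% of marrow pre-B coding joints, 33.1%, 29.5%, 33.3% and 28.1% of cycling, 39.2%, 39.8% and 39.5% of untreated and 38.3% and 38.0% of IAA/Dox joints. Marrow pre-B libraries were all the highest and cycling libraries all the lowest. Joints with inserted bases were 13.6% ± 1.22, 21.5% ± 2.27, 14.5% ± 1.01 and 17.6% ± 2.09, and, with distinct joints counted once, 14.8% ± 1.13, 22.1% ± 1.55, 20.4% ± 1.35 and 19.5% ± 1.23, so that the untreated and IAA/Dox means changed order. Joint structure was not tested, and its classes come from the alignment ends of bait and prey. Marrow pre-B also differed in run and prey length. Its middle-third preys had 0.646% to 0.755% mismatched bases, against 0.115% to 0.203% in the other libraries.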

How the data were processed

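The deposited lists hold 1 junction per line with its chromosome, position, strand, alignment ends and read name, per the file headers; the authors gave no normalization, and all counts and shares were made here from those lines. The submitters' processing notes name mm9 and Bowtie2, the latter with no version. The mm9 sequence and its GENCODE annotation supplied gene names. Groups came from the sample titles. Segments were named by the gaps and gene window given above. Python 3.11.15 with pandas 2.3.3 and numpy 2.4.6 made the tables. Shares were compared with exact permutation tests from scipy 1.17.1. Segments were tested in R 4.3.3 by the voom method of limma 3.58.1 at a prior count of 0.5, followed by eBayes, only the groups compared entering each fit; the segment test was first tested on simulated data. Plots were drawn with matplotlib 3.10.9. Named segments are the 5 most used in each group, the 3 largest rises and falls per comparison among called segments whose libraries do not overlap, and the 3 most used sites with no gene; other names were added beside these. The members and lists were chosen with earlier results of these data known. Replicate counts over segments differed beyond counting noise in marrow pre-B and Wapl-degron pairs (largest p 2.4e-05); cycling pairs 1 and 2, 2 and 3, and 2 and 4 did not (p 0.13, 0.58 and 0.056), at low depth, and all were kept. The intervals are 95% Wilson or exact binomial.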

Additional observations from a re-analysis of the deposited data

Results flagged for a closer look

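A signal in data outside the comparisons was the middle-third junctions of the 25 libraries with a bait in the heavy chain JH segments, which held 1062 such junctions among 10275487, where a count of 0 would allow 3. Wild-type marrow held 5 among 1926903 junctions, all in replicate 1 with 0 in replicates 2 and 3. Marrow with the Igh inversion held 12 among 1920787, 10 of them in replicate 1, 2 in replicate 4 and 0 in the other pair. The lines transformed by v-Abl held more, from 34 among 609844 in the IAA/Dox Single Igh line with the inversion to 287 among 1925110 in the untreated Wapl-degron line. The IAA/Dox Wapl-degron libraries held 140 among 461756. The differences were not tested. No share and no named segment of the 4 cycling v-Abl libraries had 1 library beyond Dixon's critical value.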

How the results depend on the processing

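Of the shares and log2 ratios, few changed direction. The cycling share difference turned to -7.25 points with all junctions as denominator. The untreated log2 ratio of middle to distal junctions against marrow pre-B turned to 0.15 with preys of 30 to 90 bp and to 0.29 without segments within 1 mismatch, and ran from -0.158 to 0.0264 as each library was left out. The IAA/Dox share difference ran from -2.87 to 0.0143 points in the same way, and was -0.03 with the region widened by 50 kb. Called middle-third segments after IAA/Dox numbered 120 with a minimum of 1 junction, 8 with a quasi-binomial model (4 higher, 4 lower), 16 without segments within 1 mismatch, and 9 to 24 as each library was left out, the lone IAA/Dox library then assumed to vary like the others. The 16 were called among the 26 segments with at least 100 junctions and 2 or more mismatches. Segments under 100 junctions, which had no mismatch count, were left out too. Of the 10 segments tested within 1 mismatch 5 were called. In cycling against marrow pre-B called segments numbered 65 with a minimum of 1 junction and 15 among those 26. Leaving out each library in turn gave 22 to 27. In untreated against marrow pre-B they numbered 123 with a minimum of 1 junction, 14 among those 26 and 17 with preys of 30 to 90 bp. The range was 22 to 30 as each library was left out. With distinct junctions 16 were higher and 20 lower, and with TMM scaling 10 and 20. A minimum of 1 junction tests many segments with few counts, 191, 82 and 193 in the 3 comparisons. Of the 120, 65 and 123 called, 105, 52 and 5 were higher. The median log2 fold change over the whole region was then 1.86, 1.67 and -1.60, each toward the group with shallower libraries. At counts near 0 log2 values are set largely by the prior count and library depth, so no result is drawn from these calls. With the replicate number as a block the cycling share difference was 12.4 points (exact p = 0.25) and 26, 26 and 29 segments were called in the 3 comparisons; same-numbered libraries did not deviate together (correlations from -0.44 to 0.27), so the numbers were not taken as pairs. Calls of named segments stayed on the same side of the threshold, with the same direction, in 248 of 281, 329 of 352 and 312 of 347 recomputed values of the 3 comparisons. Direction turned as follows, with the cause not tested. Igkv4-57-1 after IAA/Dox went from 0.02 to -0.0753 with all junctions, -0.0668 with TMM, -0.119 with distinct junctions, -0.0168 with the block and -0.166 with short preys, and ran from -0.00674 (without untreated replicate 3) to 0.0581 as each library was left out. In cycling against marrow pre-B, all junctions gave Igkv4-57 -0.55, Igkv19-93 -0.20, Igkv4-58 -0.60 and Igkv1-88 -0.52. Igkv4-62 stood at 0.0176 without cycling replicate 3, but it had 0 cycling junctions, so that value is set by the prior count and is no turn. In untreated against marrow pre-B, TMM gave 0.17 at 69060903, 0.15 at Igkv4-79 and 0.0444 at 69581647, distinct junctions gave 0.28 at Igkv4-79 and 0.37 at 69581647, and short preys gave -0.88 and -0.71 at the signal sides of Igkv19-93 and Igkv4-81. Run as a block could not be fitted, since both Wapl-degron groups shared 1 run and marrow pre-B shared none. Preys of 30 to 90 bp, the close-copy settings and the removal of both shallow libraries were added after seeing the data. Depth limits the cycling libraries most.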
